A study of Mus musculus with 3 samples.

Results

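Collagen chains are the products of the Col genes, and 44 of the 48709 genes in the deposited count table were collagen chains. They were taken by a rule on annotation alone, as protein-coding genes whose symbol reads Col, a type number, the letter a and a chain number. The rule used no measured value, but it was set with earlier results of these data known. RNA had been sequenced from 3 wild-type (WT) libraries of sorted mouse lung cells, labelled as lung smooth muscle cells, with no other group to set them against. The donor mice all carried an inducible Cre recombinase (CreERT2) driven by smooth muscle actin together with tdTomato, a red fluorescent protein. All had received intraperitoneal tamoxifen (75 mg/kg daily for 10 days) when 8 weeks old, and lungs were digested and sorted on a FACSAria 2 months afterwards. Because the driver is an actin promoter, the design can mark any cell in which that promoter was active when tamoxifen was given, and the sources used here do not give the gate of the sort. Nothing in the labels states that the libraries came from separate animals, so the spread between them, and every p-value, may be technical.

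A collagen molecule is a triple helix of 3 chains, each built from repeats of glycine followed by 2 other residues, often proline and hydroxyproline. Fibrillar collagens (types I, II, III, V, XI and relatives) assemble into the striated fibrils that give airways and vessels their tensile strength. Type IV chains form the sheet of the basement membrane under epithelium and endothelium and around smooth muscle, and type VI forms beaded filaments next to it. FACIT chains (fibril-associated collagens with interrupted triple helices) decorate fibrils, multiplexins sit where basement membrane meets connective tissue, and transmembrane collagens stay anchored in the cell membrane. In lung, fibroblasts and smooth muscle are known as the main sources of the fibrillar chains, and endothelium and epithelium also make type IV.

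The glycine repeat is visible in the genes themselves. In fibrillar genes 48.6% of inner coding exons are 54 bases long, the length of 6 repeats. One such exon of each of 4 fibrillar genes shows this pattern, read from GRCm38 with GENCODE M21 exons on the + strand, with the glycine codon (GGN) that opens each repeat in capitals. They come from Col1a1 (chr11:94939904-94939957), Col1a2 (chr6:4515481-4515534), Col3a1 (chr1:45325360-45325413) and Col5a1 (chr2:27965251-27965304). In each gene the exon is the first 54-base inner exon with a glycine codon in frame at all 6 positions.
Col1a1: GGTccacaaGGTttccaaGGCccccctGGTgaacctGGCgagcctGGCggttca
Col1a2: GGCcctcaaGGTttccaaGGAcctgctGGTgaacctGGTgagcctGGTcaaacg
Col3a1: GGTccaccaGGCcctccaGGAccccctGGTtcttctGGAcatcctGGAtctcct
Col5a1: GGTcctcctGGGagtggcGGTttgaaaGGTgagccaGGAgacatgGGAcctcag
By that choice each of the 6 repeats opens with such a codon in all 4 sequences, and a glycine codon elsewhere in a repeat is left in lower case. Exons of 54 bases made up 469 of 1916 inner coding exons of the collagen genes (24.5%), against 698 of 157295 in all other protein-coding genes (0.444%). The fibrillar genes held most of them, 305 of 627 inner exons (48.6%), and in 302 of those 305 a glycine codon stood in frame at all 6 positions. FACIT genes had 109 of 414 (26.3%), type VI and type VI-like genes 19 of 237 (8.02%) and type IV genes 12 of 284 (4.23%). The 4 sizes in the plot of exon lengths, each a whole number of repeats, together covered 77.2% of fibrillar inner exons, 40.0% of all collagen inner exons and 2.54% of those in other genes. Type IV genes thus shared the repeat but seldom the exon size, and the 3 short-chain network genes (Col8a1, Col8a2, Col10a1) had no inner coding exon to count. A collagen gene had a median of 47 coding exons, against 6 in other protein-coding genes. Despite this regular build, 11 of 44 chains shared a 50-base word with a transcript of another gene, and at most 3.54% of words in Col6a6 and 0.927% in Col3a1.

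**Figure D1:**
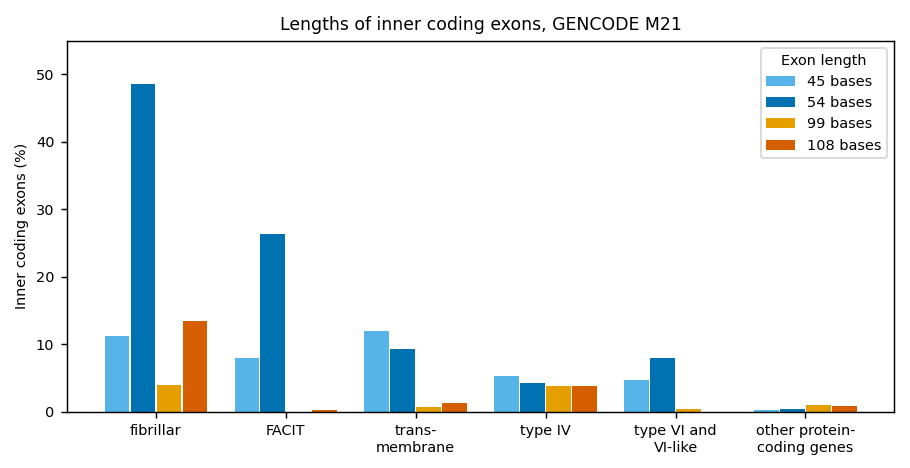
Percent of inner coding exons (y axis) that have each of 4 lengths in bases (colours), for 5 collagen classes and all other protein-coding genes of GENCODE M21 (x axis). The fibrillar genes stand out at 54 bases, with 48.6% of their inner exons, against 0.444% in other genes.

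Collagen chains took a small share of the RNA, and that share was lowest in library 1. The chains had 16915 of 18896263 counts in library 1, 30375 of 18355813 in library 2 and 26001 of 16877297 in library 3. This was 0.0895% (95% Wilson interval 0.0882 to 0.0909), 0.165% (0.164 to 0.167) and 0.154% (0.152 to 0.156) of each library's counts, and such intervals cover counting error only. Of the 44 chains, 33 (75.0%) had a mean of at least 1 CPM (counts per 1000000 counts), against 59.4% of 22005 nuclear protein-coding genes. At least 10 CPM was reached by 19 chains (43.2%), against 35.8% of nuclear protein-coding genes, and at least 100 CPM by 5. A further 14 chains lay between 1 and 10 CPM and 11 below 1 CPM. The median chain stood at 2.58 ± 0.18 on the log2(CPM + 1) scale, against 2.00 ± 0.08 for nuclear protein-coding genes (SD, n = 3). The 4 highest chains took 48.8% of all collagen counts. In bulk libraries such as these, fewer cells of a collagen-making type and less collagen RNA per cell cannot be told apart.

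**Figure D2:**
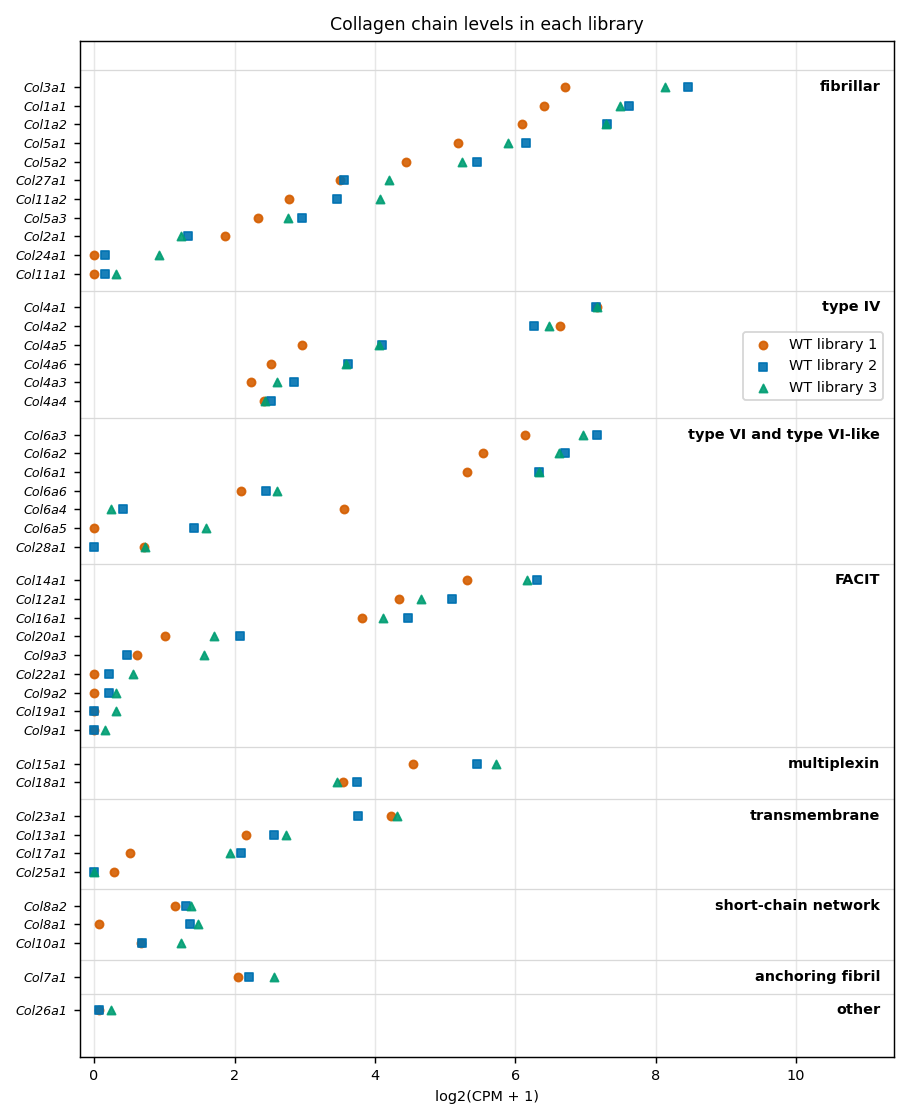
Level of each of the 44 collagen chains as log2(CPM + 1) (x axis), grouped by class (rows), with 1 symbol per WT library. Most fibrillar, type VI and FACIT chains have the circle of library 1 on the left, whereas the 3 symbols of Col4a1 coincide.

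The labelled cell type was checked against its markers, because smooth muscle is only one possible source of collagen. The 8 smooth muscle markers summed to 85.5, 106 and 79.2 CPM in libraries 1, 2 and 3. Smooth muscle myosin Myh11 averaged 24.3 ± 6.82 CPM and actin Acta2 13.2 ± 3.36 CPM (SD, n = 3), and calponin Cnn1 had 0, 7 and 5 counts. Tagln and Smtn of the same list averaged 18.9 ± 2.30 and 15.8 ± 5.36 CPM. Adventitial fibroblast markers summed to 207, 294 and 354 CPM, endothelial markers to 820, 463 and 594 CPM and lymphocyte markers to 903, 1032 and 1053 CPM. Smooth muscle transcripts were thus present at low levels among those of other lung cells, and the collagen values are those of the whole mixture.

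Types I and III form the large fibrils, and their chains Col3a1 and Col1a1 had the highest mean levels per kilobase of exon, although Col4a1 of the basement membrane was above both in library 1. Col3a1, the single chain of type III (ENSMUSG00000026043, chromosome 1, 45311538 to 45349706), had 104, 352 and 279 CPM in libraries 1, 2 and 3, from 1966, 6467 and 4711 counts. Col1a1, the chain present in a pair of copies in type I collagen (ENSMUSG00000001506, chromosome 11, 94936224 to 94953042), had 83.7, 197 and 178 CPM. Col1a2, its partner (ENSMUSG00000029661, chromosome 6, 4504814 to 4541544), had 67.1, 157 and 155 CPM. In all 3 genes library 1 was the low one and library 2 the highest, and the highest library exceeded the lowest by 3.27-fold in Col3a1, 2.27-fold in Col1a1 and 2.26-fold in Col1a2 after TMM scaling (trimmed mean of M values, which aligns the bulk of genes between libraries). Highest and lowest libraries are named after TMM scaling throughout. Gene positions follow the deposited table and were identical in GRCm38 (GENCODE M21) for 42 of the 44 chains.

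Levels of different genes were compared per kilobase of exon, the union of all annotated exons of a gene. On that scale Col3a1 averaged 25 ± 13.0 and Col1a1 23.3 ± 9.23 CPM per kb (SD, n = 3), followed by the basement membrane chain Col4a1 at 19 ± 0.087. Col3a1 and Col1a1 did not differ beyond their spread, with a log2 ratio of Col3a1 to Col1a1 of -0.27, 0.26 and 0.07 by library (0.02 ± 0.27). Col1a1 exceeded Col1a2 by 1.20 ± 0.07 (log2 ratio, 1.24, 1.25 and 1.12). That ratio depends on the length used, because the union of Col1a2 exons spans 12426 bases and its longest coding transcript 5348. With the longest coding transcript as length, a choice made after seeing the data, Col1a1 over Col1a2 was 0.13 and Col3a1 over Col1a1 0.69 on the log2 scale. Since 3 libraries cannot give an exact two-sided sign-flip p below 0.25, ratios within libraries carry no test.

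The promoters of Col1a2 and Col3a1 differ in composition, as the RefSeq windows from 250 bases before to 50 after the start show (GRCm38.p6, + strand, Col1a2 at chr6:4505368-4505667 and Col3a1 at chr1:45311288-45311587). Capitals mark the TATA motif TATAAA, the CCAAT box and the GC box GGGCGG. All were searched on both strands, so their reverse complements are in capitals too.
Col1a2: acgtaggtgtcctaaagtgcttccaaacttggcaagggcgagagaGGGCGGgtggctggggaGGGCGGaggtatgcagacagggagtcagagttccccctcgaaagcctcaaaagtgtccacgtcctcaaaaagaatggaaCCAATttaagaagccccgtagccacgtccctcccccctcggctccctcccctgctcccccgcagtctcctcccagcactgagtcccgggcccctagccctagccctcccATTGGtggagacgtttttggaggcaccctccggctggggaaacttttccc
Col3a1: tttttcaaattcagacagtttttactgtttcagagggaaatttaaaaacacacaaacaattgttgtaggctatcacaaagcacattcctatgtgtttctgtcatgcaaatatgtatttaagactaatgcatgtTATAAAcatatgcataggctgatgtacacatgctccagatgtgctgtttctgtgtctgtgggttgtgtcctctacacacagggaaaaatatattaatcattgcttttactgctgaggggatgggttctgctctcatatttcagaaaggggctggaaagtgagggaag
The Col1a2 window holds 2 CCAAT boxes, 2 GC boxes (GGGCGG) and 13 CG dinucleotides, whereas the Col3a1 window holds a TATAAA, no CG dinucleotide and 37.7% G and C. The RefSeq start of Col1a2 lies 804 bases inside the gene as the deposited table places it, and that of Col3a1 at its first base. In all, 35 of 44 chains matched the RefSeq promoter table, with 38 windows. GGGCGG occurred in 23 of the 38 windows (60.5%), against 35.7% of 32851 promoters. CCAAT occurred in 13 (34.2%), against 37.4%, and TATAAA in 5 (13.2%), against 13.6%. A match of letters does not show that a factor binds there.

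Type V chains nucleate the fibrils of types I and III and limit their width. Col5a1 (ENSMUSG00000026837, chromosome 2, 27886425 to 28039514) had 35.4, 69.8 and 58.4 CPM and Col5a2 (ENSMUSG00000026042, chromosome 1, 45374321 to 45503282) 20.8, 42.7 and 37.0 CPM in libraries 1 to 3. Both followed the order of the type I chains, lowest in library 1 and highest in library 2. Their log2 ratio per kilobase, Col5a1 to Col5a2, was 0.89 ± 0.05, a spread no wider than the 0.08 that counting error alone gives, and 0.37 with the longest coding transcript as length. Col5a3, the third type V chain, averaged 5.55 ± 1.41 CPM and lay below Col5a2 by a log2 ratio of -2.06 ± 0.17.

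The other fibrillar chains were low. Col11a2 (ENSMUSG00000024330, chromosome 17, 34039437 to 34066685), a chain of the cartilage-type fibril, had 5.87, 9.97 and 15.8 CPM, and its partner Col11a1 had 0, 2 and 4 counts. Col27a1, a long fibrillar chain known from cartilage, had 10.4, 10.8 and 17.4 CPM. Col2a1, the main collagen of cartilage, had 50, 28 and 23 counts, which made it one of the few chains that were highest in library 1. The cartilage markers summed to 23.9, 19 and 16.8 CPM, with Matn3 at 0 in every library and Acan at 4, 3 and 2 counts. Most of that sum was Chad, with 19.8, 9.92 and 9.36 CPM, while Sox9 had 29, 113 and 71 counts. Of 6 tested cartilage markers, library 1 was the lowest for 3 and the highest for 3, against 38.0% and 38.8% of all genes tested. Col24a1 had 0, 2 and 15 counts. By library totals, library 3 stood 5.60-fold above library 1 when 0 is read as a limit of 3 counts per library. That value leaves out the counting error of library 3 and is no lower bound.

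Type IV chains were split, with library 1 the lowest for 3 of 6, against 38.0% of all genes tested. Among tested fibrillar chains it was the lowest for 9 of 10, and the difference between the classes was not tested. Col4a1 (ENSMUSG00000031502, chromosome 8, 11198423 to 11312826), which with Col4a2 forms the common network of basement membranes, had 142, 141 and 142 CPM from 2687, 2592 and 2404 counts. Col4a2 (ENSMUSG00000031503, chromosome 8, 11312805 to 11449287) had 98.8, 75.8 and 88.1 CPM. After TMM scaling both were highest in library 1, at 150, 144 and 133 CPM for Col4a1 and 104, 77.2 and 82.3 CPM for Col4a2. For Col4a1 the order turned with the scaling, and its spread of 1.12-fold between libraries passed the test with TMM scaling (chi-square test, Benjamini-Hochberg adjusted p = 0.00033) but not with library totals or without library 3. Endothelium is a source of basement membrane. Its markers were, after TMM scaling, highest in library 1 for 8 of 8 genes, against 38.8% of all genes tested. With library totals Kdr was highest in library 3, at 110, 73.0 and 113 CPM. The part of endothelium in the levels of Col4a1 and Col4a2 was not tested.

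Col4a1 and Col4a2 lie head to head on chromosome 8, with starts 21 bases apart, and their 5′ ends overlap by 22 bases. Their RefSeq windows are shown because they overlap. They are given 5′ to 3′ for each gene (GRCm38.p6, Col4a1 on the − strand at chr8:11312777-11313076 and Col4a2 on the + strand at chr8:11312555-11312854), with the same motifs in capitals.
Col4a1: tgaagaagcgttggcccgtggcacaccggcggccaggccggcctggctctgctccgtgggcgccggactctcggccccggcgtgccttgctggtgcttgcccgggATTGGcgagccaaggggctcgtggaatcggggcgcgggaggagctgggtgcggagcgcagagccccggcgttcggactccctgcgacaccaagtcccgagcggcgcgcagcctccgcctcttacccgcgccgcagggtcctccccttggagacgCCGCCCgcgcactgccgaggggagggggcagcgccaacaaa
Col4a2: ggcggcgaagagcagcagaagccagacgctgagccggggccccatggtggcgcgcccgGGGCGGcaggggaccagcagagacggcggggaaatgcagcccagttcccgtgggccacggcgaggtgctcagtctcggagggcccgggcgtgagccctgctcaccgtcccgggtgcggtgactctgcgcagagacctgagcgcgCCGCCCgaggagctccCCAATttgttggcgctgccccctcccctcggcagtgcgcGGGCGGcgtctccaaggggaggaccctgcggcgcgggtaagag
The windows share 78 bases and hold 37 and 33 CG dinucleotides, with 74.0% and 73.7% G and C, and neither holds a TATAAA. The log2 ratio of Col4a1 to Col4a2 per kilobase varied between libraries, at 0.35, 0.72 and 0.52 (0.53 ± 0.19), beyond the 0.05 that counting error alone gives. The exons of the pair overlap on opposite strands, and the sources used here do not give the strand setting of the authors' counting, so reads in the overlap are uncertain.

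The minor type IV chains form specialised membranes, with Col4a3, Col4a4 and Col4a5 together best known from kidney glomerulus and lung alveolus, and Col4a5 with Col4a6 from the membrane around smooth muscle. Col4a5 (ENSMUSG00000031274, chromosome X, 141475385 to 141689234) had 6.77, 16.2 and 15.6 CPM, and Col4a6 (ENSMUSG00000031273, chromosome X, 141165403 to 141474076) had 4.76, 11.3 and 11.1 CPM. Both were lowest in library 1, with the highest library 2.31-fold and 2.28-fold above the lowest. Their log2 ratio stayed at 0.75, 0.77 and 0.74, closer than the 0.16 that counting error would give on average. These genes are also head to head, with 1308 bases between them. Col4a3 averaged 5.0 ± 1.26 CPM and Col4a4 4.49 ± 0.219 CPM, with starts 72 bases apart on chromosome 1, and Col4a3 was lowest in library 1 while Col4a4 did not pass the test (adjusted p = 0.61, chi-square). Col4a3 lay far below Col4a1, at a log2 ratio per kilobase of -5.27 ± 0.38. The alveolar type 1 epithelial markers summed to 258, 162 and 291 CPM, and their part in the Col4a3 and Col4a4 levels was not tested.

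The 3 main type VI chains, which assemble as a trimer, were all lowest in library 1. Col6a1 (ENSMUSG00000001119, chromosome 10, 76708792 to 76726168) had 38.7, 79.5 and 80.0 CPM, Col6a2 (ENSMUSG00000020241, chromosome 10, 76595762 to 76623630) 45.4, 104 and 97.3 CPM and Col6a3 (ENSMUSG00000048126, chromosome 1, 90765923 to 90843971) 69.3, 142 and 123 CPM. The highest library exceeded it by 1.98-fold to 2.21-fold. Per kilobase, the log2 ratio of Col6a1 to Col6a2 was 0.63 ± 0.08 and that of Col6a3 to Col6a1 was -0.68 ± 0.12. The first of these has no fixed direction, since it was -0.35 with the longest coding transcript as length (3949 bases for Col6a2, against 8326 in the union of exons). Whatever the length, its SD over libraries of 0.08 was close to the 0.06 expected from counting.

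Col6a4, Col6a5 and Col6a6, genes of type VI-like chains that stand in a row on chromosome 9, each went their own way. Col6a4 (ENSMUSG00000032572, chromosome 9, 105989454 to 106096783) had 204 counts in library 1, against 6 and 3 in libraries 2 and 3. Its ratio of library 1 to library 2 was 34.1 (95% exact counting interval 15.4 to 94.1) and of library 1 to library 3 68.4 (23.1 to 334). Col6a5 ran the other way, with 0, 31 and 34 counts. By library totals, library 3 stood 12.7-fold above library 1 when 0 is read as 3 counts. That value leaves out the counting error of library 3 and is no lower bound. Col6a6 had 3.28, 4.47 and 5.10 CPM and did not pass the test (adjusted p = 0.15, chi-square). Exons of Col6a4 overlap those of the opposite-strand genes Gm36993, with 1 count in all, and Gm47575, with no count listed. Of 50-base words, 3.54% in Col6a6, 3.42% in Col6a5 and 0% in Col6a4 recur in another gene. To that extent the overlap leaves Col6a4, and the shared words leave Col6a5 and Col6a6, less certain than Col6a1 to Col6a3. Col28a1, which resembles type VI, had 12, 0 and 11 counts.

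Among the FACIT chains, Col14a1 (ENSMUSG00000022371, chromosome 15, 55307750 to 55520803), which binds fibrils, led with 38.9, 78.0 and 71.0 CPM. Col12a1 (ENSMUSG00000032332, chromosome 9, 79598991 to 79718831) had 19.3, 33.3 and 24.2 CPM and Col16a1 (ENSMUSG00000040690, chromosome 4, 130047840 to 130099283) 13.1, 21.1 and 16.3 CPM. All 3 were lowest in library 1 and highest in library 2. Per kilobase, Col14a1 exceeded Col12a1 by a log2 ratio of 2.38 ± 0.27. Col20a1 followed with 19, 59 and 38 counts, and the type IX chains known from cartilage and eye were low. Col9a1 had 0, 0 and 2 counts, Col9a2 had 0, 3 and 4 and Col9a3 had 10, 7 and 33. Col22a1 and Col19a1 had at most 8 and 4 counts in a library.

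The multiplexins divided. Col15a1 (ENSMUSG00000028339, chromosome 4, 47208161 to 47313167), whose protein links basement membrane to fibrils, had 22.3, 43.0 and 51.9 CPM and was highest in library 3. Col18a1 (ENSMUSG00000001435, chromosome 10, 77052178 to 77166548), the source of endostatin, had 10.6, 12.4 and 10.0 CPM, and its spread of 1.35-fold passed the test with TMM scaling (adjusted p = 0.019, chi-square) but not with library totals, nor without library 2 or library 3. The log2 ratio of Col15a1 to Col18a1 per kilobase was therefore uneven, at 1.21, 1.93 and 2.52.

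Transmembrane and short-chain collagens were minor. Col23a1 (ENSMUSG00000063564, chromosome 11, 51289920 to 51583918) led the transmembrane class with 17.7, 12.5 and 19 CPM, lowest in library 2. Col17a1, the hemidesmosome collagen of basal epithelium, had 8, 60 and 48 counts, and Col13a1 averaged 4.67 ± 1.09 CPM. Col25a1 had 4, 0 and 0 counts. Col8a1, a short chain known from vessel walls, had 1, 29 and 30 counts, a ratio of library 3 to library 1 of 29.8 with a wide exact counting interval (4.96 to 1217), while its partner Col8a2 had 23, 27 and 27 and did not pass the test (adjusted p = 0.84, chi-square). Col10a1, a growth plate collagen, had 11, 11 and 23 counts, but Nt5dc1, on the opposite strand with overlapping exons, had 1069 counts in all, so these 45 counts cannot be assigned with certainty. Col7a1, the anchoring fibril chain, averaged 3.88 ± 0.931 CPM, and Col26a1 had 1, 1 and 3 counts. No chain was without a count, but 7, 4 and 1 chains were at 0 in libraries 1, 2 and 3, where 3 counts, the limit that a 0 allows, correspond to 0.159, 0.163 and 0.178 CPM.

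Set side by side, the classes changed their proportions between libraries. Fibrillar chains took 32.8%, 46.4% and 43.3% of the summed collagen counts per kilobase in libraries 1, 2 and 3 (40.8% ± 7.13, SD, n = 3), and type IV chains 31.7%, 17.3% and 19.2% (22.7% ± 7.84). Type VI and type VI-like chains held 20.5% ± 1.29, FACIT chains 8.10% ± 0.317, multiplexins 4.51% ± 0.406 and transmembrane chains 2.63% ± 0.789. The short-chain, anchoring and remaining chains each stayed under 1 percent. In CPM, type IV chains summed to 261, 255 and 267, while fibrillar chains summed to 334, 847 and 749 and type VI chains to 168, 332 and 309. The share of type IV in library 1 was thus high beside a nearly level type IV sum and a low fibrillar one.

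The spread of single chains between libraries exceeded counting error for most of them. Of the 38 chains with at least 10 counts, 32 (84.2%) varied between libraries (chi-square test of homogeneity with TMM scaling, Benjamini-Hochberg adjusted over 23317 genes), against 70.0% of all genes tested. Without library 1, 18 of 37 chains passed (48.6%), against 38.2% of genes. With all 3 libraries, the 6 that did not pass were Col13a1, Col4a4, Col6a6, Col7a1, Col8a2 and Col10a1, and the other 6 of the 44 chains had too few counts to test. Genes in general varied more than by counting error, with a common biological coefficient of variation of 0.266. When that common dispersion was added to the error, 5 of 38 chains passed (13.2%), against 10.3% of all genes, a share near the background. Those 5 were Col24a1, Col6a4, Col6a5, Col8a1 and Col9a3, all low in level. No chain of at least 10 CPM was among them, although chains at that level had a higher median coefficient of variation than all genes of that level, 0.241 against 0.185.

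The direction of the spread was shared by many chains. Library 1 was the lowest for 28 of 38 tested chains (73.7%), against 38.0% of all genes tested, and the highest for 6 (15.8%), against 38.8%. Those 6 were Col4a1, Col4a2, Col23a1, Col6a4, Col2a1 and Col28a1, of which Col4a1, Col23a1 and Col28a1 were highest in library 3 with library totals. Among the 19 chains of at least 10 CPM, 12 were highest in library 2 and lowest in library 1 (63.2%), against 17.9% of 8944 genes at that level, and 11 were so with library totals. Col15a1, Col27a1 and Col11a2 were lowest in library 1 and highest in library 3. The median difference of library 2 minus library 1 over these 19 chains was 0.93 on the log2 scale, against 0.01 over all genes of that level, and that of library 3 minus library 1 was 0.66, against -0.02. The median chain spanned 1.98-fold between its highest and lowest library, against 1.28-fold for all genes of at least 10 CPM. Chains of 1 library share its RNA and its cells, so these counts describe 3 libraries and not 19 independent observations.

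**Figure D3:**
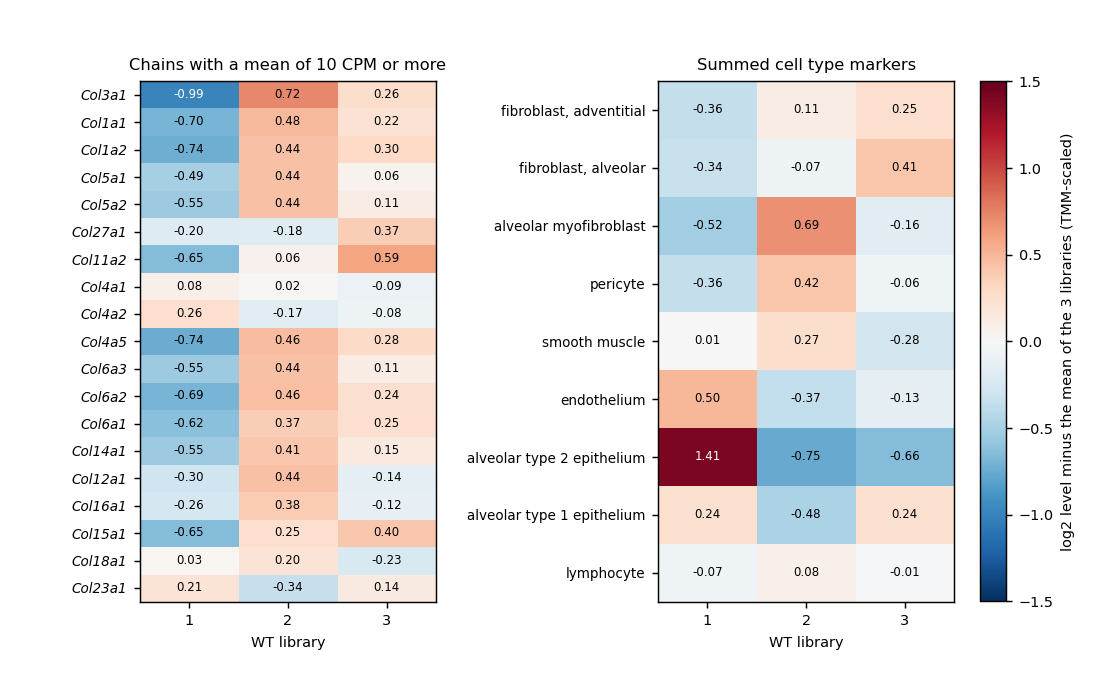
TMM-scaled log2 level minus the mean of the 3 WT libraries, for the 19 chains with a mean of at least 10 CPM (left) and for summed cell type markers (right), by library (x axis), with red above and blue below the mean. Col3a1 runs from -0.99 in library 1 to 0.72 in library 2, while endothelial markers stand at 0.50 and alveolar type 2 markers at 1.41 in library 1.

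Summed markers of several cell types, but not those of smooth muscle, were lowest in library 1 as most chains were. Library 1 was the lowest for 7 of 8 adventitial fibroblast, 5 of 8 alveolar fibroblast, 4 of 8 pericyte and 4 of 6 alveolar myofibroblast markers, against 38.0% of all genes tested. It was also the lowest for 4 of 8 smooth muscle and 4 of 8 lymphocyte markers, as many as for pericytes. The lymphocyte sum was lowest in library 1 too. Alveolar fibroblast markers summed to 160, 199 and 303 CPM, pericyte markers to 72.7, 129 and 101 CPM and alveolar myofibroblast markers to 373, 890 and 538 CPM, each sum lowest in library 1. Most of the myofibroblast sum was Hhip, a Hedgehog-binding protein, with 206, 535 and 311 CPM. Red cell and platelet markers, at 240, 1079 and 352 CPM, were also lowest in library 1 and highest in library 2, and most of that sum was the globin Hbb-bs. The smooth muscle sum was lowest in library 3. Genes annotated as microRNAs took 15.1%, 12.9% and 8.36% of counts in libraries 1, 2 and 3. Endothelial markers (820, 463 and 594 CPM), alveolar type 2 markers (2310, 533 and 621 CPM), airway markers (13748, 2786 and 7898 CPM) and myeloid markers (877, 290 and 363 CPM) had their highest sums in library 1. Mesothelial markers were nearly absent, with 1 of 6 at 1 CPM or more and Calb2 at 0. The part of these cell types and of the microRNA share in the collagen pattern was not tested.

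**Figure D4:**
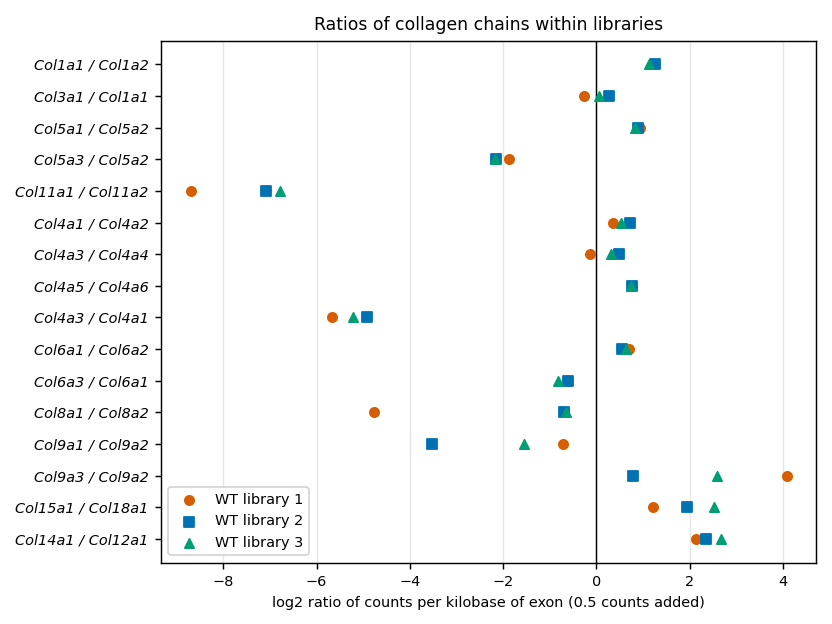
Log2 ratio of counts per kilobase for the 16 pairs of chains (rows), with 0.5 counts added, 1 symbol per WT library and a line at 0 for equal levels. The 3 symbols of Col4a5 to Col4a6 lie between 0.74 and 0.77, whereas pairs with chains at or near 0 counts, such as Col8a1 to Col8a2, are spread widely.

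In the plot of chain ratios, 14 of 16 pairs had the same sign in all 3 libraries, 8 above 0 and 6 below. Among them, Col9a1 to Col9a2 had 0 counts for both chains in library 1, so its sign there came from the exon lengths alone. With no division by length 13 pairs had a common sign, and with the longest coding transcript 16. The SD over libraries was 0.07 for Col1a1 to Col1a2, 0.05 for Col5a1 to Col5a2, 0.01 for Col4a5 to Col4a6 and 0.08 for Col6a1 to Col6a2, while these chains themselves spanned 1.91-fold to 2.31-fold between libraries. These 4 pairs of chains that share a trimer were picked after their values were seen. Other pairs that share one spread more, with an SD of 0.19 for Col4a1 to Col4a2, 0.32 for Col4a3 to Col4a4 and 0.12 for Col6a3 to Col6a1. Counting error alone would give 0.05, 0.22 and 0.06 for those pairs. Chains of different molecules could run as closely as the 4 picked pairs. Col5a2 and Col6a3 both stood at -0.55, 0.44 and 0.11 from their mean over libraries (log2, TMM-scaled). The SD was 0.27 for Col3a1 to Col1a1, 0.27 for Col14a1 to Col12a1 and 0.65 for Col15a1 to Col18a1. Pairs with few counts spread most, with 2.36 for Col8a1 to Col8a2 and 1.65 for Col9a3 to Col9a2, and counting error alone would give 0.77 and 1.39 there.

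The proteins that make, process and bind collagen were followed in 6 lists of 80 genes, of which 73 had at least 1 CPM and 47 at least 10 CPM. In these lists 62 of 78 tested genes varied beyond counting error, against 70.0% of all genes tested, and library 1 was the lowest for 45, against 38.0%. Of the 17 hydroxylating and glycosylating enzymes and helpers of the endoplasmic reticulum, 12 varied beyond counting error, a share near the 70.0% of all genes. P4hb, the shared subunit of prolyl hydroxylase, had 165, 178 and 177 CPM, P4ha1, its catalytic subunit, 44.8, 47.0 and 41.7 CPM, and Ppib, a prolyl isomerase, 34.0, 47.6 and 36.3 CPM. P4ha3, another catalytic subunit, had 4.87, 16.1 and 10.1 CPM, a wider range than that of Col1a1. Library 1 was the lowest for 5 of the 17, near the 38.0% of all genes. The collagen chaperone Serpinh1 had 43.3, 57.7 and 43.0 CPM and the export receptor Mia3 103, 96.8 and 111 CPM, while Sparc, a collagen-binding matricellular protein, had 84.7, 98.3 and 128 CPM. In the chaperone and export list library 1 was the lowest for 5 of 9 tested genes, against 38.0% of all genes.

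Adamts14, an enzyme that trims amino-terminal propeptides, had 19.4, 41.7 and 75.8 CPM and its relative Adamts2 10.4, 24 and 34.6 CPM. The crosslinking lysyl oxidases Lox and Loxl1 had 4.50, 8.50 and 11 CPM and 9.42, 21 and 25.8 CPM. All 4 were lowest in library 1 and highest in library 3, unlike the type I chains, which peaked in library 2. The list as a whole did not share that order. Pcolce, with 9.21, 19.4 and 17.3 CPM, was ordered as the type I chains were, and Bmp1, with 10.6, 11.1 and 11.3 CPM, did not pass the test. Peroxidasin Pxdn, which crosslinks type IV, had 35.1, 35.6 and 36.6 CPM and did not pass the test, and transglutaminase Tgm2 was highest in library 1 with 58.8, 31.0 and 35.6 CPM. In the processing list library 1 was the lowest for 10 of 15 genes, against 38.0% of all genes, and the sum was highest in library 3, at 194, 242 and 314 CPM in libraries 1, 2 and 3. Among fibril-associated proteoglycans and matrix proteins library 1 was the lowest for 12 of 13, the exception being Nid2, and their sums were 561, 1002 and 958 CPM. Tenascin X (Tnxb) had 115, 241 and 176 CPM, biglycan (Bgn) 90.5, 149 and 183 CPM and decorin (Dcn) 67.9, 132 and 142 CPM, whereas fibromodulin (Fmod) averaged 1.65 ± 0.573 CPM.

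The integrin subunit Itgb1 had 249, 187 and 261 CPM, and library 1 was the lowest for 5 of 12 receptor genes, near the 38.0% of all genes, and the highest for 7, against 38.8%. The discoidin receptor Ddr2, which binds fibrillar collagen, had 19.1, 43.3 and 51.1 CPM and the uptake receptor Mrc2 9.47, 22.7 and 23.1 CPM. Cd36, a scavenger receptor with many ligands, ran the other way with 137, 61.0 and 105 CPM, and Gp6, the platelet collagen receptor, had 9, 0 and 7 counts. In the degradation list the inhibitors Timp3 and Timp2 led with 146 ± 11.9 and 104 ± 15.1 CPM, the gelatinase Mmp2 had 29.3, 33.0 and 55 CPM, and no count was listed for Mmp1a. Library 1 was the lowest for 8 of 12 tested genes there, against 38.0% of all genes. Several of these genes are also markers of a cell type, among them Dcn, Dpt and Aspn in the fibroblast and myofibroblast lists.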

How the data were processed

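RNA of 3 WT libraries was measured with a SMARTer stranded total RNA kit after miRNeasy extraction with DNase, per the labels' protocols. The authors' deposited table holds raw read counts per gene, not normalized. The submitters' processing notes name Trimmomatic 0.38, STAR 2.6.1d, featureCounts 1.6.3 and DESeq2 1.18.1, without settings, and list human builds although the gene IDs are mouse. Columns named as controls 1 to 3 were matched to WT 1 to 3 by number. Total RNA includes unspliced transcripts.

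CPM values divide a gene's counts by its library total and multiply by 1000000. Depth was 16877297 to 18896263 counts. Libraries were compared after TMM scaling (edgeR 4.0.16, R 4.3.3), and log2 levels and ratios had 0.5 counts added. The chi-square test used genes with at least 10 counts and an adjusted p threshold of 0.05, and was tested on simulated data. Alternatives used library totals, DESeq2 1.42.0 size factors, totals of nuclear protein-coding genes, other filters and lengths, and left out each library. Exons came from GENCODE M21. Named were chains of at least 10 CPM or in a pair, the highest and lowest of each class, and the 3 highest genes of each list of genes that make, process or bind collagen. The lowest gene was named for some lists only, and most cell type lists had no gene named by this rule. Chains and list genes outside that rule, such as Col20a1, P4ha3, Col17a1, Adamts2, Lox, Loxl1, Pcolce, Bmp1 and Mrc2, were chosen after their values were seen. The members and lists were chosen with earlier results of these data known.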

Additional observations from a re-analysis of the deposited data

How the results depend on the processing

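No paired analysis was possible because there is 1 group. Over the alternatives tried, 29 to 33 chains had at least 1 CPM and 18 to 20 at least 10 CPM, and library 1 was the lowest for 28 to 30 of 38 tested chains over the 4 scalings. The median level of 2.58 became 2.34 with a pseudocount of 0.1 CPM and 3.73 over chains of at least 0.5 CPM. The 32 varying chains became 5 with the common dispersion added, against 10.3% of all genes, and 18 to 26 with 1 library left out. The lowest, 18 of 37 (48.6%, against 38.2% of genes), was without library 1, which leaves libraries 2 and 3 alone. It was 25 of 37 (67.6%, against 53.6% of genes) without library 2. Without library 3 it was 26 of 36 (72.2%, against 56.8% of genes).

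The log2 ratio of Col3a1 to Col1a1 ranged from -0.10 to 0.16 with 1 library left out, with -0.0025 without library 3 and the lowest without library 2. Col6a1 to Col6a2 was -0.30 with no division by length and -0.35 with the longest coding transcript, and Col6a3 to Col6a1 was 0.77 with no division by length. The cause was in each case the exon length used or the library left out, by construction. With 0 counts added, 3 pairs with a count of 0 could not be computed. The share of fibrillar chains ranged from 38.0% to 46.2%, of type IV from 18.2% to 25.4% and of type VI from 19.6% to 21.3%. Depth limits the 11 chains below 1 CPM, whose counts were at most 33 in a library.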
